A study of Chlamydomonas reinhardtii with 28 samples.

Results

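The H3K4me3 peak lists of dnmt1 and wild-type (WT) cells of the green alga Chlamydomonas reinhardtii were compared, which are 4 of the 28 samples of the series and 4 of its 18 ChIP libraries with a peak list. They were chosen by their titles, as the H3K4me3 libraries of these genotypes, and every peak of the 4 lists was used. The dnmt1 cells are labelled as DNMT1 knockouts, lacking a DNA methyltransferase, and the others as WT. Each genotype was profiled once in the mt+ strain CC-5155 and once in the mt- strain CC-5325, in vegetative cells that, per the labels' protocols, were grown in TAP medium and fixed with formaldehyde. The antibody was against H3K4me3 (Abcam). The labels do not say how the knockout lines were made or how many independent lines of each there were. The title of the series names meiotic recombination around the sex-determining locus as its subject.

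Trimethylation of lysine 4 of histone H3 is a mark of nucleosomes around the start sites of transcribed genes in plants, algae, fungi and animals. In many of these organisms it is scarce where DNA is methylated. DNMT1 enzymes copy cytosine methylation to the new DNA strand after replication. Monomethylation of lysine 9 of the same histone, H3K9me1, marks silenced chromatin in this alga, and its WT peak lists serve below as a map of such chromatin. Mating type is set by a region of chromosome 6 that differs between mt+ and mt-.

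The lists held 15674 peaks in dnmt1 mt+ and 15256 in WT mt+, and 15540 peaks in dnmt1 mt- and 15433 in WT mt-. They covered 13.80 Mb in dnmt1 mt+ and 12.96 Mb in WT mt+, and 13.17 Mb in dnmt1 mt- and 13.60 Mb in WT mt-. A list thus covered 11.3% to 12.1% of the 114 Mb spanned by the peaks of the series. The mating type labels were checked on the sequence named mating_type_plus, which held 31 peaks in dnmt1 mt+ and 27 in WT mt+, and 10 in dnmt1 mt- and 9 in WT mt-. There was 1 library per genotype and strain. No test between genotypes was run, and the strains are set side by side. Peaks within a list are not replicates. The depth was recovered from the deposited fold and p-value of each summit, which give the number of fragments piled up there and the local background in fragments. The median summit held 261 fragments in dnmt1 mt+ and 236 in WT mt+, and 287 in dnmt1 mt- and 298 in WT mt-. The median local background was 45.3 fragments in dnmt1 mt+ and 41.5 in WT mt+, and 63.6 in dnmt1 mt- and 70.7 in WT mt-. The background was thus higher in dnmt1 than in WT in mt+ and lower in dnmt1 than in WT in mt-.

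Nearly the whole H3K4me3 landscape of WT cells was present in dnmt1. A WT peak counted as kept where a dnmt1 peak of the same strain shared at least 1 bp with it, and as lost where none did. A dnmt1 peak that met no WT peak of its strain counted as gained. These words describe lists with a threshold, not signal that is absent. In mt+ the dnmt1 list had 560 gained peaks, 3.57% of its 15674 (Wilson 95% interval 3.29 to 3.87), and 27 of the 15256 WT peaks, 0.177%, were lost (0.122 to 0.257). In mt- the dnmt1 list had 252 gained peaks, 1.62% of its 15540 (1.43 to 1.83), and 285 of the 15433 WT peaks, 1.85%, were lost (1.65 to 2.07). These intervals and those below cover counting error only. Gains outnumbered losses in mt+ by 533, whereas in mt- losses outnumbered gains, a balance of -33.

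Strains of one genotype also differed in their peaks. The WT mt- list had 403 peaks not met by WT mt+, which had 93 of its own, and the dnmt1 mt- list had 121 peaks not met by dnmt1 mt+, which had 381 of its own. These 4 libraries enter several of the comparisons, which are therefore not independent. The 560 gains of mt+ exceeded each of these counts, and the 252 gains and 285 losses of mt- lay within their range.

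The gained peaks were divided by whether the WT list of the other strain held them. Of the 560 of mt+, 260 (46.4%) overlapped a peak of the WT mt- list and 300 (53.6%) overlapped neither WT list. The 260 were narrow, with a median of 246 bp, and 103 of them lay within 1 kb of a WT mt+ peak. The 300 had a median of 339 bp, and 49 of them lay within 1 kb of a WT mt+ peak. A WT mt+ H3K9me1 peak was found at 170 of the 300 (56.7%, 51.0 to 62.2) and at 46 of the 260 (17.7%, 13.5 to 22.8). Among the kept peaks of dnmt1 mt+ the share was 2.83% (2.58 to 3.11).

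In mt- most gains were in neither WT list. Of the 252 gained peaks, 42 (16.7%) overlapped a peak of WT mt+ and 210 (83.3%) overlapped neither WT list. A WT mt- H3K9me1 peak was found at 146 of the 210 (69.5%, 63.0 to 75.4) and at 8 of the 42 (19%, 9.98 to 33.3), against 3.15% (2.89 to 3.44) of the kept dnmt1 mt- peaks. The 210 had a median width of 406 bp and the 42 of 432 bp, the reverse of the order in mt+. In both strains the peaks absent from both WT lists sat at WT H3K9me1 positions more often than gains that the other WT strain had. The latter lie at a WT H3K4me3 peak by definition. Kept WT H3K4me3 peaks were seldom at WT H3K9me1 (2.64% in mt+ and 3.33% in mt-), so the classing partly sets this contrast. Several gains could lie under 1 WT H3K9me1 peak, so the intervals do not test it. In dnmt1, H3K9me1 itself was mostly missing at the gains in neither WT list that lay at WT H3K9me1. Of these, 160 of the 170 in mt+ and 128 of the 146 in mt- lay at no dnmt1 H3K9me1 peak. The same held for kept dnmt1 peaks at WT H3K9me1, of which 427 of 428 in mt+ and 476 of 482 in mt- lay at none, so this was not particular to the gains. Lost WT peaks were at WT H3K9me1 in 18.5% of cases in mt+ (8.18 to 36.7, 5 of 27) and 8.42% in mt- (5.72 to 12.2, 24 of 285), against 2.64% and 3.33% of the kept WT peaks. With 12000 peaks of highest −log10 q kept in each list, WT H3K9me1 was at 11.9% of all gains in mt+ and 11.1% in mt-, against 38.6% and 61.1% with the full lists.

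**Figure D1:**
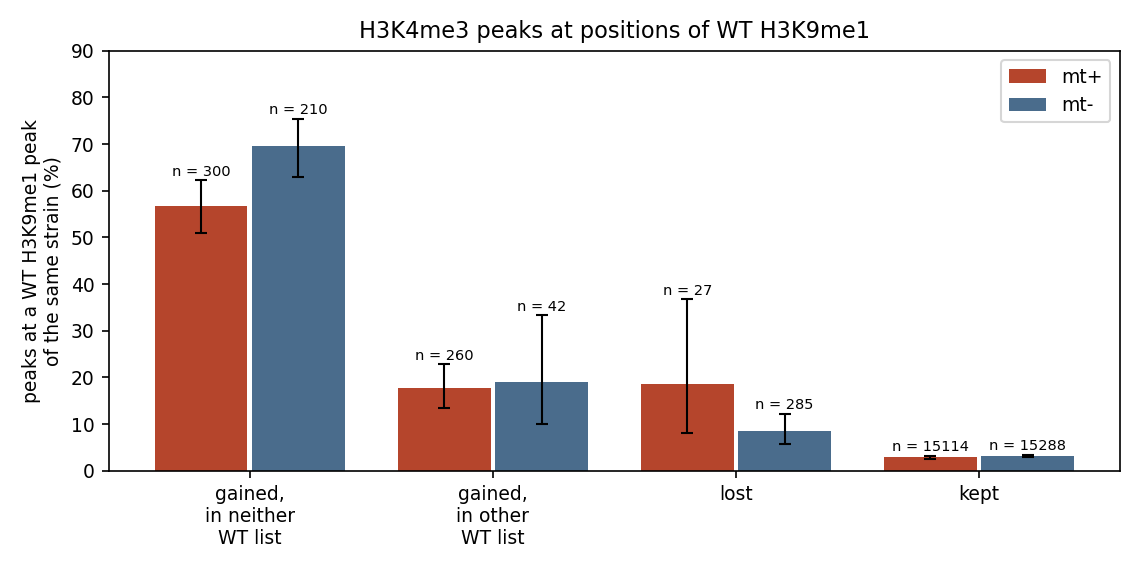
Share of H3K4me3 peaks, in percent, with an overlapping WT H3K9me1 peak in their own strain, for gained peaks in neither WT list, gained peaks also in the WT list of the other strain, lost peaks and kept dnmt1 peaks. Bars are 1 pair of libraries each, lines are Wilson 95% intervals, and n is the number of peaks. The first class stands at 56.7% in mt+ and 69.5% in mt-, the lost peaks at 18.5% and 8.42%, and the kept peaks at 2.83% and 3.15%.

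Size and recurrence in the other strain were also compared. Among peaks gained relative to both WT lists, those at WT H3K9me1 had a median width of 569 bp in dnmt1 mt+ and 542 bp in dnmt1 mt-, with 212 and 243 fragments at the median summit. Those elsewhere had 196 and 230 bp, with 105 and 142 fragments. Of the 170 at WT H3K9me1 in dnmt1 mt+, 141 (82.9%, 76.6 to 87.9) overlapped a dnmt1 mt- peak, against 29 of the other 130 (22.3%, 16.0 to 30.2). Of the 146 in dnmt1 mt-, 143 (97.9%, 94.1 to 99.3) overlapped a dnmt1 mt+ peak, against 30 of the other 64 (46.9%, 35.2 to 58.9). Over the whole lists, 97.6% of dnmt1 mt+ peaks were found in dnmt1 mt- and 99.2% of dnmt1 mt- peaks in dnmt1 mt+, so the 97.9% was near its background. Peaks elsewhere were narrower and held fewer fragments, and the part of width and depth in this difference was not tested.

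H3K9me3 peaks were at part of the gains at WT H3K9me1. In this alga, as the lists show, H3K9me3 and H3K4me3 peaks mostly coincide: 77.2% of kept H3K4me3 peaks in dnmt1 mt+ and 77.7% in dnmt1 mt- overlapped a dnmt1 H3K9me3 peak of the strain. Of the peaks gained at WT H3K9me1 and absent from both WT lists, 75 of 170 (44.1%) in dnmt1 mt+ and 72 of 146 (49.3%) in dnmt1 mt- did so. Elsewhere it was 2 of 130 (1.54%) and 2 of 64 (3.12%). The peaks elsewhere were also narrower, with medians of 196 and 230 bp against 569 and 542 bp. Kept peaks paired 1 to 1 were likewise narrower without WT H3K9me3 than with it. Their WT medians were 512 bp against 881 bp in mt+ and 535 bp against 904 bp in mt-. The part of width in the H3K9me3 shares was not tested. WT H3K9me3 peaks were at 2 of all 300 in mt+ and at 1 of all 210 in mt-. These gains lack a WT H3K4me3 peak by definition, which partly sets these low counts. H3K4me1 is a mark next to active start sites in many animals, and what it marks in this alga was not examined here. In the WT and dnmt1 lists of the strain it was at none of the 300 and none of the 210. Kept dnmt1 peaks seldom had it either. A dnmt1 H3K4me1 peak was at 66 of 15114 in mt+ and at 2 of 15288 in mt-. A WT H3K4me1 peak was at 6 and 4 of them, so its absence was not particular to the gains.

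Gains common to the strains numbered 170 peaks of dnmt1 mt+, 56.7% of its 300, met by 171 of dnmt1 mt-, 81.4% of its 210. Over the whole dnmt1 lists these shares were 97.6% and 99.2%, so gains recurred less often than dnmt1 peaks in general. Their median gap to the nearest WT mt+ H3K4me3 peak was 6.61 kb, against 4549 bp for the 300 and 2898 bp for all gains of mt+. Of the common gains, 97 lay more than 5 kb away and 35 more than 20 kb, while 12 lay within 1 kb. A gained peak meets no WT peak of its strain by definition, and no distance to be expected from the spacing of WT peaks was computed. The median width of the common gains was 569 bp in dnmt1 mt+ and 490 bp in dnmt1 mt-.

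The widest common gain, named by the smaller of its 2 widths, lay on chromosome 3, where the dnmt1 mt+ peak reached from 6978659 to 6980123 (1465 bp) and the dnmt1 mt- peak from 6978676 to 6980098 (1423 bp). Its summit held 286 fragments over a local background of 44.2 in dnmt1 mt+, and 305 over 62.5 in dnmt1 mt-. The nearest WT H3K4me3 peak was 5.74 kb away in mt+ and 6.01 kb in mt-. The site was under an H3K9me1 peak of 18.6 kb in WT mt+ and of 50.2 kb in WT mt-, and under none in either dnmt1 list.

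The second widest lay on chromosome 9, where the dnmt1 mt+ peak reached from 4356963 to 4358291 and the dnmt1 mt- peak from 4357038 to 4358332. It was 1329 and 1295 bp wide, with 250 fragments over 49.8 and 279 over 78.8. The third lay on chromosome 4 from 912247 to 913532 in dnmt1 mt+ (1286 bp, 278 fragments over 49.7) and was 1269 bp wide in dnmt1 mt- (296 over 73.4). Another gain of chromosome 4, from 892126 to 893355 in dnmt1 mt+, was 1230 bp wide there and 1174 bp in dnmt1 mt-. These 3 sites were under WT H3K9me1 peaks of 16.8 to 23.6 kb in the 2 strains and under no dnmt1 H3K9me1 peak.

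Chromosome 10 held 2 of the 8 widest. One reached from 3612407 to 3613682 (1276 bp) in dnmt1 mt+, and its dnmt1 mt- counterpart from 3612424 to 3613685 (1262 bp). The other reached from 3631257 to 3632495 (1239 bp) in dnmt1 mt+, and its dnmt1 mt- counterpart from 3631280 to 3632490 (1211 bp). Both were under the same WT H3K9me1 peak, 46.4 kb wide in mt+ and 29.7 kb wide in mt-. On chromosome 13 a peak from 4323984 to 4325200 in dnmt1 mt+ (1217 bp, 303 fragments over 61.1) had a counterpart of 1175 bp in dnmt1 mt- (327 over 67.9), 11 kb from any WT H3K4me3 peak. On chromosome 17 a peak from 6130385 to 6131608 in dnmt1 mt+ (1224 bp) was 1268 bp wide in dnmt1 mt- and stood 21.6 kb from the nearest WT mt+ peak. It was the single site of the 8 with H3K9me1 left in dnmt1, where the overlapping mt+ peak was 2.10 kb wide in dnmt1 against 4.01 kb in WT, and the mt- peak 3.10 kb wide in dnmt1 against 8.31 kb in WT. All 8 sites had an H3K9me3 peak in both dnmt1 lists, 0.656 to 1.43 kb wide, and none in either WT list. They were chosen as lacking WT H3K4me3 peaks, with which H3K9me3 peaks mostly coincide, so the choice partly sets the absence in WT. Of all 170 common gains, 63 had an H3K9me3 peak in both dnmt1 lists and 93 in neither, so the 8 widest were not typical in this.

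The common gains were clustered. Joined over gaps of up to 50 kb, a distance chosen after the data were seen, the 170 peaks formed 74 stretches, of which 46 held 1 peak and 10 held 5 or more, together 76 peaks. The fullest lay on chromosome 10 from 3597938 to 3741547, 144 kb long, with 15 H3K4me3 peaks in dnmt1 mt+ and 2 in WT mt+, and 15 in dnmt1 mt- and 2 in WT mt-. H3K9me1 peaks covered 4.26% of it in dnmt1 mt+ and 79.9% in WT mt+, and 9.82% in dnmt1 mt- and 78.6% in WT mt-. A stretch of chromosome 4 from 846681 to 992573 held 19 peaks in dnmt1 mt+ and 7 in WT mt+, and 19 in dnmt1 mt- and 8 in WT mt-.

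Some shorter stretches were denser in peaks, but not all. A stretch of 97.1 kb on chromosome 11 held 8 peaks in dnmt1 mt+, whereas one of 129 kb on chromosome 12 held 20. Each stretch is bounded by its own gains, so the rule of 5 or more partly sets the density of the short ones. Chromosome 5 from 3631430 to 3653997, 22.6 kb, held 12 peaks in dnmt1 mt+ and 2 in WT mt+, and 11 in dnmt1 mt- and 2 in WT mt-. H3K9me1 covered 2.70% of it in dnmt1 mt+ and 100% in WT mt+, but in mt- it still covered 41.2% in dnmt1 against 100% in WT. Chromosome 3 from 7129571 to 7161657 held 8 peaks in dnmt1 mt+ and 0 in WT mt+, and 8 in dnmt1 mt- and 1 in WT mt-. These stretches were chosen by their gains, so the higher dnmt1 counts are a description of them and no support for a gain.

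**Figure D2:**
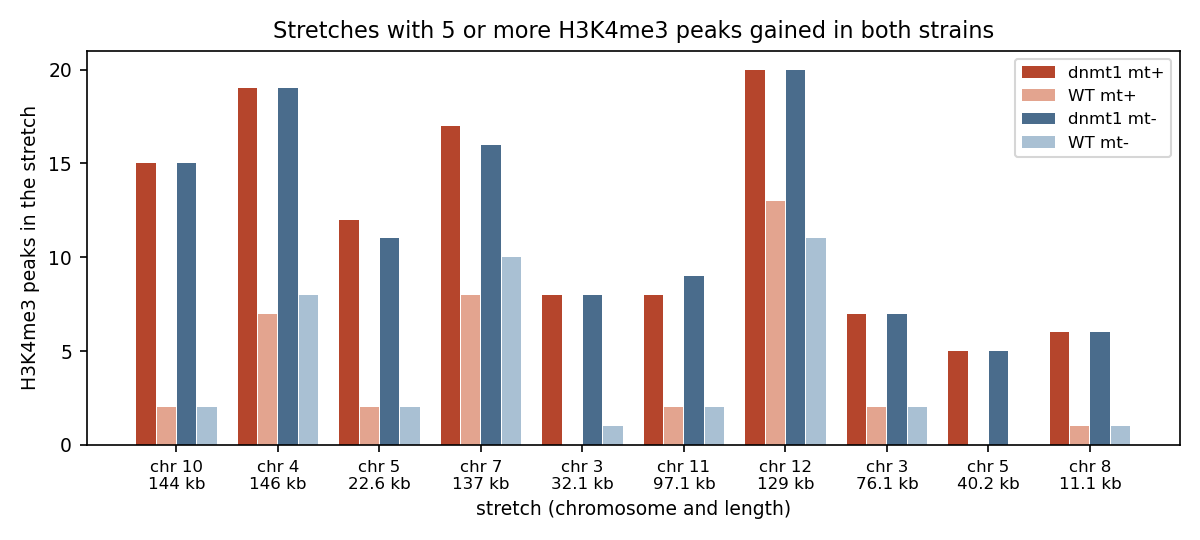
Number of H3K4me3 peaks in each library within the 10 stretches that held 5 or more peaks gained in both strains, joined over gaps of up to 50 kb. Each group of bars is 1 stretch, named by chromosome and length in kb, and each bar is 1 library. In the chromosome 10 stretch of 144 kb the counts were 15 in each dnmt1 library and 2 in each WT library.

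Lost peaks were few, narrow and weak. Their median width was 280 bp in mt+ and 240 bp in mt-, against 789 and 830 bp for the kept WT peaks. Of the 285 lost in mt-, 209 (73.3%) overlapped a peak of dnmt1 mt+, against 99% of all WT mt- peaks. Of the same 285, 138 (48.4%) lay within 1 kb of a dnmt1 mt- peak. Counted against both dnmt1 lists, 13 peaks of WT mt+ and 76 of WT mt- were lost, of which 8 were common to the strains. A −log10 q of at least 5 asked of the lost peak left 4 of these 8.

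Ranked by the smaller of the 2 widths, the first of these 8 lay on chromosome 11 from 2898588 to 2899048 in WT mt+ (461 bp, 138 fragments over 37.0), with a counterpart from 2898579 to 2899053 in WT mt- (475 bp, 198 over 72.5). It stood under a WT H3K9me1 peak 34.9 kb wide in mt+ and 35.0 kb wide in mt-, with the nearest dnmt1 H3K4me3 peak 16.7 and 16.8 kb away. The second, on chromosome 3 from 8883927 to 8884690 in WT mt+, was 764 bp wide there with 242 fragments over 41.5, and 450 bp wide in WT mt- with 208 over 60.6. No H3K9me1 peak was at this site in any of the 4 lists. The third was on chromosome 15 from 1984311 to 1984632 in WT mt+ (322 bp) and was 549 bp wide in WT mt-. The other 5 were 196 to 303 bp wide in WT mt+ and 166 to 264 bp in WT mt-, on chromosomes 3, 9, 2, 4 and 10, with 86 to 115 fragments at the summit in WT mt+ and 135 to 184 in WT mt-. One of them, on chromosome 10 from 3605977 to 3606172, lay inside the stretch with 13 common gains.

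Kept peaks were compared in width where 1 WT peak and 1 dnmt1 peak overlapped only each other. In mt+ there were 14916 such pairs, and 79.2% were wider in dnmt1. The median log2 width ratio of dnmt1 over WT was 0.06 (quartiles 0.01 and 0.12), or 4.06% wider, with median widths of 829 bp in dnmt1 and 791 bp in WT. In mt- the direction was the opposite: of 14898 pairs, 72.6% were narrower in dnmt1, with a median of -0.05 (quartiles -0.11 and 0.00), or a change of -3.13%, and median widths of 796 bp in dnmt1 and 827 bp in WT. Both edges moved alike, outward by a median of 16 bp on the left and 17 bp on the right in dnmt1 mt+, and by -13 bp on each side in dnmt1 mt-, that is inward.

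Within each strain the library with more background fragments had the wider peaks, dnmt1 in mt+ and WT in mt-. Between strains of one genotype, WT mt- over WT mt+ gave a median of 0.05, with backgrounds of 70.7 and 41.5 fragments. For dnmt1 mt- over dnmt1 mt+ it was -0.05, with 63.6 and 45.3, so here the library with more background had the narrower peaks. Both medians were close in size to those between genotypes. The crossed pairs differed less. The median was 0.01 for dnmt1 mt+ over WT mt- (45.3 and 70.7 fragments) and 0.01 for dnmt1 mt- over WT mt+ (63.6 and 41.5). The part of depth in the widths was not tested. The median of dnmt1 over WT was positive in mt+ and negative in mt- on all 17 chromosomes. In mt+ it ran from 0.050 on chromosome 2 to 0.067 on chromosome 9. In mt- it ran from -0.057 on chromosome 9 to -0.038 on chromosome 11. The ratio was largest for narrow peaks in mt+, with a median of 0.14 in the narrowest of 5 equal classes (188 to 572 bp in WT) and 0.03 in the widest. In mt- the medians of these classes were -0.06 and -0.03. The classes were formed by WT width, the divisor of the ratio, so choosing small WT widths itself raises the ratio. A shift of given size in bp is also a larger ratio on a narrow peak.

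Joining and splitting ran the same way as width. In mt+ 140 dnmt1 peaks each spanned 2 or more WT peaks, and 29 WT peaks were divided among 2 or more dnmt1 peaks. In mt- 40 dnmt1 peaks spanned several WT peaks, and 171 WT peaks were divided. Of the sequence covered in dnmt1 mt+ alone, 791 kb were at kept peaks and 214 kb were gained peaks. Of that covered in WT mt- alone, 719 kb were at kept peaks and 78.2 kb were lost peaks. Most of the difference in covered length, 840 kb in mt+ and -421 kb in mt- (dnmt1 minus WT), was therefore at the edges of kept peaks.

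Large changes of width had another distribution. In mt+, 191 pairs (1.28%) were at least 1.5 times wider in dnmt1 and 7 (0.0469%) at least 1.5 times narrower. In mt-, 69 pairs (0.463%) were at least 1.5 times wider in dnmt1 and 121 (0.812%) at least 1.5 times narrower. Among kept peaks at a WT H3K9me1 peak, 45 of 378 (11.9%, 9.02 to 15.6) were at least 1.5 times wider in mt+, and in mt- the count was 39 of 471 (8.28%, 6.12 to 11.1). Among the other kept peaks it was 146 of 14538 (1.00%, 0.855 to 1.18) and 30 of 14427 (0.208%, 0.146 to 0.297). Of the 69 pairs so widened in mt-, 39 thus lay at WT H3K9me1, where 471 of the 14898 pairs were. Nearly all of these were narrow WT peaks. In the 4 wider of 5 equal classes of WT width, the mt+ pairs at WT H3K9me1 that were at least 1.5 times wider numbered 4 of 261 (1.53%, 0.598 to 3.87), and the mt- pairs 2 of 304 (0.658%, 0.181 to 2.37). Elsewhere in these classes the counts were 10 of 11662 (0.0857%) and 0 of 11598.

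Kept peaks at WT H3K9me1 were also narrower in WT, at a median of 721 bp in WT mt+ and 727 bp in WT mt-, against 792 and 830 bp elsewhere. Within the narrowest class, 41 of 117 (35.0%, 27.0 to 44.0) at WT H3K9me1 and 136 of 2876 (4.73%, 4.01 to 5.57) elsewhere were at least 1.5 times wider in dnmt1 mt+. In dnmt1 mt- the counts were 37 of 167 (22.2%, 16.5 to 29.0) and 30 of 2829 (1.06%, 0.744 to 1.51). Within this class the peaks at WT H3K9me1 were again narrower in WT, with medians of 418 bp against 475 bp elsewhere in mt+ and 383 bp against 507 bp in mt-, and the part of WT width in the difference was not tested. Over all widths in mt-, the median ratio was -0.02 at WT H3K9me1 and -0.05 elsewhere. The comparison by H3K9me1 was chosen after the data were seen. With 12000 peaks per list, the share at least 1.5 times wider among kept peaks at WT H3K9me1 was 3.72% for mt+ and 0.98% for mt-.

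**Figure D3:**
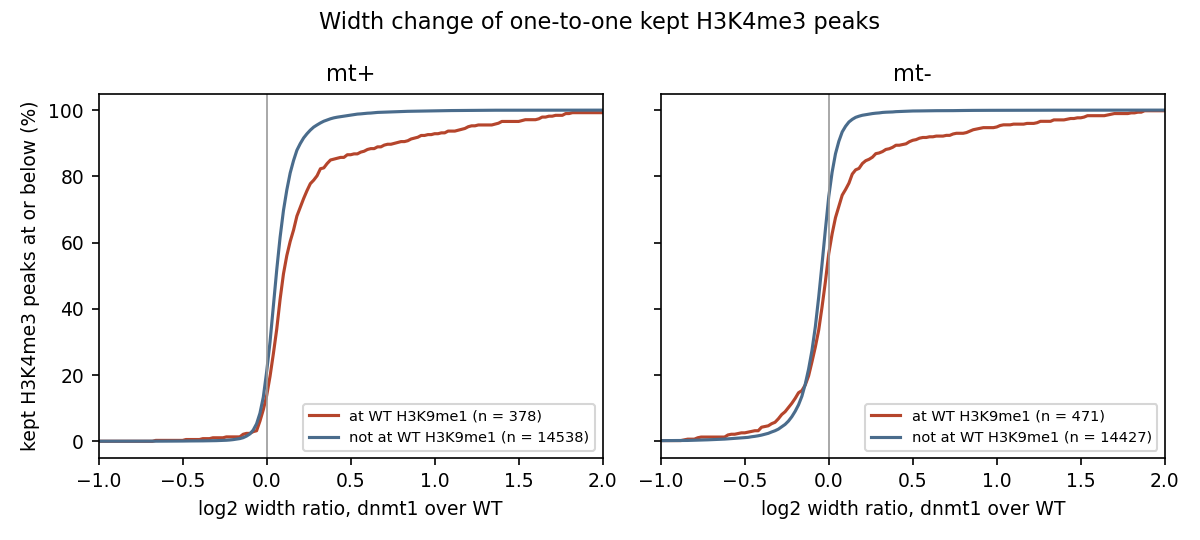
Cumulative share, in percent, of one-to-one kept H3K4me3 peaks by log2 width ratio of dnmt1 over WT, for peaks at and not at a WT H3K9me1 peak, in mt+ (left) and mt- (right). The curves of the other peaks lie right of 0 in mt+ (median 0.06) and left of 0 in mt- (median -0.05), while the curves at WT H3K9me1 have a long right tail in both strains.

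Peaks that could be followed through all 4 lists numbered 14535. Of these, 8589 (59.1%) were wider in dnmt1 in mt+ and narrower in dnmt1 in mt-, the directions of the 2 medians. At least 1.5 times wider in both strains were 23 (0.158%), and 0 were at least 1.5 times narrower in both. Of the 23, 21 lay at WT H3K9me1 of both strains, where 313 of the 14535 lay, and 0 lay at a dnmt1 H3K9me1 peak of either strain. Of the other 292 kept peaks at WT H3K9me1 of both strains, 2 did. Over the 313 peaks the log2 ratios of the 2 strains had a Pearson r of 0.64 and a Spearman rho of 0.35, and over the 14091 peaks at no WT H3K9me1 of either strain -0.27 and -0.19. These are descriptions across peaks, which are not independent and share the same 4 libraries.

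The median width of the 23 was 876 bp in dnmt1 mt+ and 402 bp in WT mt+, and 824 bp in dnmt1 mt- and 405 bp in WT mt-. Their median summit held 264 fragments in dnmt1 mt+ and 166 in WT mt+, and 301 in dnmt1 mt- and 249 in WT mt-. Of the 23, 20 had an H3K9me3 peak in both dnmt1 lists and 10 in both WT lists. Of the other 292, 222 had one in both dnmt1 lists and 214 in both WT lists. An H3K9me3 peak in both dnmt1 lists and in neither WT list was at 4 of the 23 and at 3 of the 292. The median widths of the other 292 were 818 bp in dnmt1 mt+ and 730 bp in WT mt+, and 785 bp in dnmt1 mt- and 770 bp in WT mt-.

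The pair with the largest widening in both strains lay on chromosome 1 between 1244406 and 1245281. Its width was 876 bp in dnmt1 mt+ and 194 bp in WT mt+, and 808 bp in dnmt1 mt- and 256 bp in WT mt-, log2 ratios of 2.17 and 1.66. The summit held 257 fragments over 37.3 in dnmt1 mt+ and 116 over 36.9 in WT mt+, and 266 over 59.8 in dnmt1 mt- and 188 over 57.6 in WT mt-. Within each strain all of these dnmt1 values were above the WT values. It stood under a WT H3K9me1 peak 9.44 kb wide in mt+ and 9.37 kb wide in mt-, and an H3K9me3 peak was present in both dnmt1 lists (0.816 and 0.711 kb) and in neither WT list.

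A second peak of chromosome 1, between 1070561 and 1071622, was 1062 bp wide in dnmt1 mt+ and 367 bp in WT mt+, and 1024 bp in dnmt1 mt- and 357 bp in WT mt-. On chromosome 6 a peak between 4519878 and 4520612 was 701 bp wide in dnmt1 mt+ and 215 bp in WT mt+, and 735 bp in dnmt1 mt- and 267 bp in WT mt-, under a WT H3K9me1 peak of 49.1 kb in mt+ and 49.0 kb in mt-. The peak of chromosome 9 between 4234994 and 4235758 had 753 bp in dnmt1 mt+ and 221 bp in WT mt+, and 765 bp in dnmt1 mt- and 283 bp in WT mt-. The chromosome 16 peak between 3354050 and 3354862 had 804 bp in dnmt1 mt+ and 306 bp in WT mt+, and 813 bp in dnmt1 mt- and 285 bp in WT mt-. The sixth, on chromosome 10 between 3748612 and 3750013, had 1351 bp in dnmt1 mt+ and 521 bp in WT mt+, and 1367 bp in dnmt1 mt- and 512 bp in WT mt-. All 6 stood under a WT H3K9me1 peak in both strains and under none in dnmt1. With a −log10 q of at least 5 asked in both lists, 5 of the 6 still had a pair to compare.

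Narrowing common to the strains was smaller. The first by rank, on chromosome 16 between 3636674 and 3637143, was 221 bp wide in dnmt1 mt+ and 321 bp in WT mt+, and 209 bp in dnmt1 mt- and 470 bp in WT mt-, log2 ratios of -0.54 and -1.17. The widest of the 6, on chromosome 3 between 5912764 and 5913652, was 657 bp wide in dnmt1 mt+ and 872 bp in WT mt+, and 599 bp in dnmt1 mt- and 779 bp in WT mt-, with ratios of -0.41 and -0.38. The other 4, on chromosomes 1, 16, 13 and 8, had ratios of -0.32 to -0.48 in mt+ and of -0.66 to -1.85 in mt-. None of the 6 was at an H3K9me1 peak of WT or dnmt1. Of the 14535 peaks followed through all 4 lists, 14091 were at no WT H3K9me1 of either strain, so this was not particular to the 6. Joining peaks over gaps of up to 500 bp left the smaller of the 2 ratios at -0.08 for the first peak and -0.05 for that of chromosome 8. With a −log10 q of at least 5 in both lists, 1 of the 6, that of chromosome 3, still had a pair to compare.

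**Figure D4:**
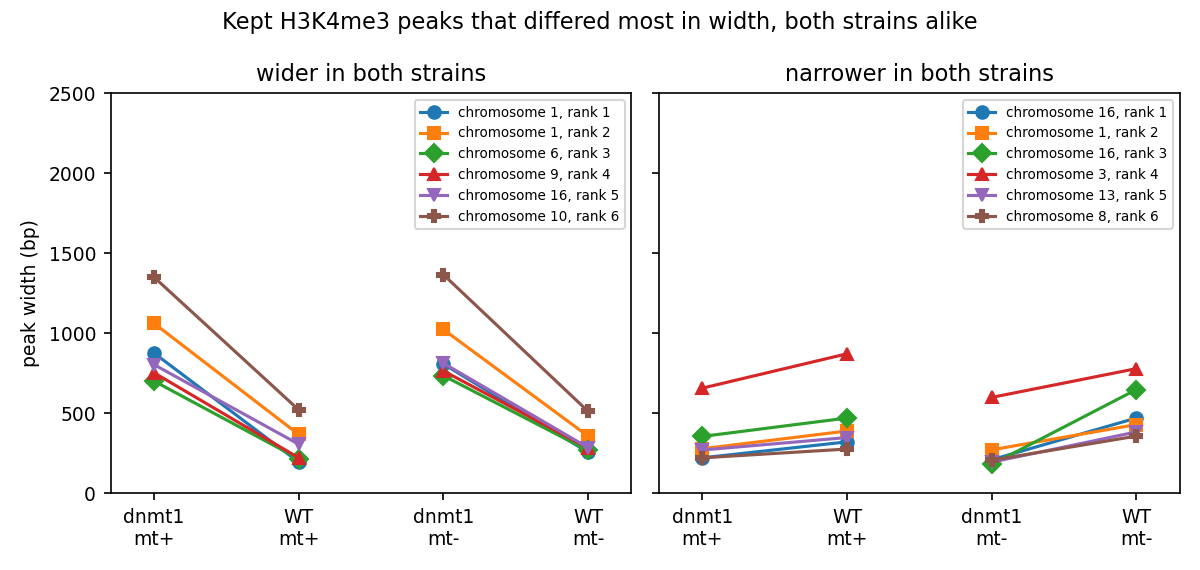
Width in bp of the 6 kept peaks with the largest widening (left) and the 6 with the largest narrowing (right) in both strains, in each of the 4 libraries. Each line joins dnmt1 to WT within a strain for 1 peak. The widened peaks were 701 to 1367 bp wide in dnmt1 and 194 to 521 bp in WT, whereas 5 of the 6 narrowed peaks were at most 355 bp wide in dnmt1.

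Gained and lost peaks were found on every chromosome in mt-, and in mt+ gains were on all 17 and losses on 12. Gained peaks made up 1.87% of the dnmt1 mt+ peaks of chromosome 2 (1.25 to 2.80) and 9.38% of those of chromosome 15 (7.38 to 11.9), the lowest and the highest shares, around a genome share of 3.57%. In dnmt1 mt- chromosome 2 was lowest again, with 0.409% (0.175 to 0.953), and chromosome 5 highest, with 3.47% (2.15 to 5.56), around 1.62%. Chromosome 5 was second in mt+, with 6.79% (4.85 to 9.43). With gains counted against both WT lists it was the highest in both strains, with 4.46% in dnmt1 mt+ and 3.04% in dnmt1 mt-.

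The gains and losses of chromosome 15 were divided by whether another list held them. Its 61 gains in mt+ included 24 in neither WT list, a lower share than the 300 of 560 (53.6%) over the genome. Its 16 gains in mt- included 14 in neither, against 210 of 252 (83.3%). It also had the highest lost share in mt-, 34 of 626 WT peaks (5.43%, 3.91 to 7.49) against 1.85% over the genome. Among these 34, 10 were absent from both dnmt1 lists, against 76 of 285 (26.7%) over the genome. Chromosome 15 was thus near the genome in both mt- splits. It held the fewest H3K4me3 peaks per Mb in WT of the 17 chromosomes, 104 in mt+ and 107 in mt-, and its WT H3K9me1 peaks had a total length of 0.923 Mb for mt+ and 1.06 Mb for mt-. The lowest lost share in mt- was that of chromosome 8, 5 of 610 (0.82%, 0.351 to 1.90). In mt+ it was highest on chromosome 3, 6 of 1326 (0.452%, 0.208 to 0.984), and 5 chromosomes had 0 losses.

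**Figure D5:**
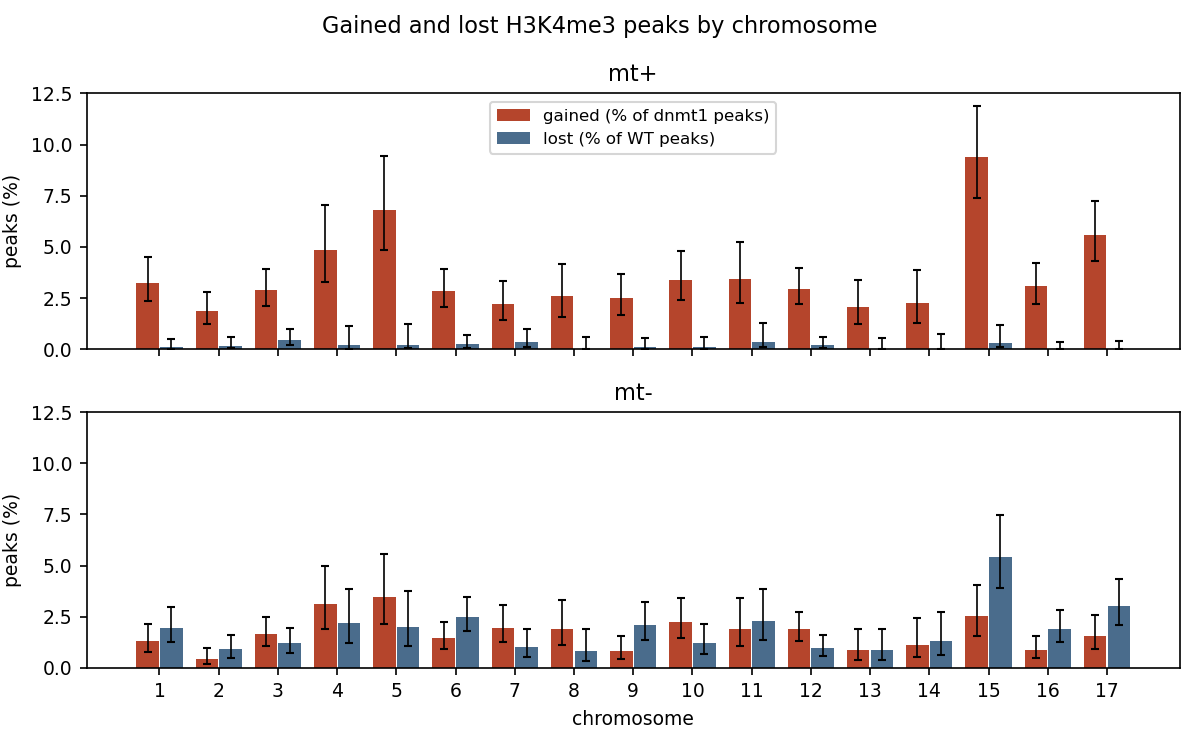
Gained peaks as a percent of dnmt1 peaks and lost peaks as a percent of WT peaks on each of the 17 chromosomes, in mt+ (top) and mt- (bottom). Lines are Wilson 95% intervals for counting error. Chromosome 15 reaches 9.38% gained in mt+ and 5.43% lost in mt-, and chromosome 5 has 6.79% and 3.47% gained.

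Chromosome ends, taken as the outermost 50 kb, had more gains per peak than interiors. Of the dnmt1 mt+ peaks there, 21 of 167 were gained (12.6%, 8.37 to 18.5), against 504 of 15306 in interiors (3.29%, 3.02 to 3.59). The dnmt1 mt- counts were 13 of 159 at ends (8.18%, 4.84 to 13.5) and 229 of 15217 in interiors (1.5%, 1.32 to 1.71). The ends held 3.75% of all gains in mt+ and 5.16% in mt-, and 0.957% of the WT peaks in mt+ and 0.998% in mt-. Losses at ends were 0 of 146 WT peaks in mt+, which by a limit of 3 counts allows a share of up to 2.05% (Wilson upper bound 2.56%), and 8 of 154 in mt- (5.19%, 2.66 to 9.92), against interior shares of 0.174% and 1.74%. On contigs, 31 of 170 dnmt1 mt+ peaks were gained (18.2%, 13.2 to 24.7), 15 of them in neither WT list, and 9 of 154 dnmt1 mt- peaks (5.84%, 3.10 to 10.7). Of the contig peaks of WT mt+, 1 of 140 was lost (0.714%, 0.126 to 3.93), and of those of WT mt-, 14 of 159 were lost (8.81%, 5.32 to 14.2).

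On the mating_type_plus sequence 4 peaks were gained in dnmt1 mt+ and 1 in dnmt1 mt-, and 0 were lost. The widest, from 224945 to 225452 in dnmt1 mt+ (508 bp, 156 fragments over 52.1), was met by the gained peak of dnmt1 mt-, from 225020 to 225343 (324 bp, 141 over 49.8). The nearest WT H3K4me3 peak was 13.5 kb away in mt+. A narrower gain of dnmt1 mt+ lay nearby, from 221931 to 222121 (191 bp). Both sites had an H3K9me1 peak in WT mt+, 3.46 kb wide, and none in dnmt1. The other gains, from 160458 to 160708 (251 bp) and from 303149 to 303355 (207 bp), were at no H3K9me1 peak. The mt- lists held few peaks on this sequence, 10 in dnmt1 and 9 in WT, against 31 and 27 in mt+. Where the mt- reads placed on it came from was not tested. Within the first 1 Mb of chromosome 6, 10 of 160 dnmt1 mt+ peaks were gained (6.25%, 3.43 to 11.1), against 3.57% over the genome, and 0 of 151 WT mt+ peaks were lost, against 0.177%. In mt- 1 of 198 dnmt1 peaks was gained there (0.505%, 0.0892 to 2.80), against 1.62%, and 18 of 211 WT peaks were lost (8.53%, 5.46 to 13.1), against 1.85%.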

How the data were processed

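ChIP libraries for H3K4me3 were compared between dnmt1 and WT within 2 strains, with 1 library each. Per the submitters' processing notes, the tools included MACS2 2.2.7.1, Bowtie2 2.4.2, Trim Galore 0.6.7, deepTools 3.5.1 and Picard. Their settings and the build are not given in the sources, so no gene was assigned and no sequence is shown. Each deposited list holds narrow peaks called by the authors on 1 library, with a fold enrichment (a linear ratio), a −log10 p-value and a −log10 q-value per summit; these are the authors' values. The lowest deposited −log10 q was 2.00 to 2.07. The labels say that H3K4me3 and H3K9me3 used the input of H3K4me1. The H3K9me1, H3K9me3 and H3K4me1 lists were used for positions alone; set3 lists and inputs were not analysed here.

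Coordinates are counted from 1. Peaks were matched within a strain by at least 1 bp (Python 3.11.15, numpy 2.4.6, pandas 2.3.3, scipy 1.17.1, matplotlib 3.10.9). A changed or kept peak was at another mark where it shared at least 1 bp with one of its peaks. The fold was read as (pileup + 1) / (background + 1) and the p-value as the upper tail of a Poisson distribution with that background, and a scale was searched for that made pileups whole numbers of fragments within 0.05. This solved 100% of the summits of each list. The scales were 0.4418 in dnmt1 mt+ and 0.458 in WT mt+, and 0.3202 in dnmt1 mt- and 0.276 in WT mt-. Peak matching was tested with changes planted in the WT mt+ list, and this recovery on simulated summits. The simulated scales were all above the 0.3202 and 0.276 of the mt- lists, so the recovery was not checked at those scales. Regions were named by rule: the 8 widest common gains and losses, the 6 largest common widenings and narrowings, the chromosomes with the highest and lowest shares, and every change on mating_type_plus. Lost, gained and width counts were repeated with other thresholds, overlaps and joined peaks. The lists and members were chosen with earlier results of these data known.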

Additional observations from a re-analysis of the deposited data

Results flagged for a closer look

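Between the strains, 4 measures of the same contrast, dnmt1 against WT, had opposite signs. With 1 library per genotype and strain, none of these differences was tested. The median log2 width ratio of kept peaks was 0.06 in mt+ and -0.05 in mt-. Covered length, dnmt1 minus WT, came to 840 kb for the mt+ pair and to -421 kb for the mt- pair. Gained minus lost peaks came to 533 in mt+ and -33 in mt-. The number of dnmt1 peaks that spanned several WT peaks minus that of WT peaks divided in dnmt1 was 111 in mt+ and -131 in mt-. The median local background was 45.3 fragments in dnmt1 and 41.5 in WT in mt+, and 63.6 in dnmt1 and 70.7 in WT in mt-, and its part in these signs was not tested.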

How the results depend on the processing

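Each comparison already sets 1 dnmt1 library against 1 WT library of its strain, and no test across the strains was run. With the 12000 peaks of highest −log10 q kept per list, a limit set by rank in each list apart, 998 were gained and 956 lost in mt+, 1267 gained and 1327 lost in mt-, and 163 losses were common. WT H3K9me1 was then at 11.9% of gains in mt+ and 11.1% in mt-, and 3.72% and 0.98% of kept peaks there were at least 1.5 times wider. Common gains, at 170, ranged from 150 to 193 over the 5 alternatives. With a −log10 q of at least 5 asked of the changed peak alone, losses were 17 in mt+ and 189 in mt-, with 4 common. With that minimum in both lists, 54.1% of gains in mt- were at WT H3K9me1. Chosen after the data were seen were all alternatives for the shares at WT H3K9me1, and also absence from both lists of the other genotype (300 gains and 13 losses in mt+, 76 losses in mt-), a distance of more than 1 kb (147 losses in mt-) and the narrowest of 5 width classes (35.0% in mt+ and 22.2% in mt- widened at WT H3K9me1). The median width ratio was 0.05 in mt+ with joined peaks, with 12000 peaks and with WT widths of at least 500 bp, and -0.04 in mt- with joined peaks and with 12000 peaks. It kept its sign in each alternative run. Of the 8 widest common gains, 7 remained with 12000 peaks and 8 with the other alternatives run on them; of the 8 common losses, 4 remained with a −log10 q of at least 5 in both lists and 0 with 12000 peaks.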
